A study of Mus musculus with 3 samples.

Results

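The genes described here code for the proteins that cut introns out of pre-mRNA and package it: the SR proteins, the heterogeneous nuclear ribonucleoproteins (hnRNPs) and the proteins of the small nuclear ribonucleoproteins (snRNPs). They were taken by gene symbol, as every symbol that begins with Srsf, Sfrs, Hnrnp, Snrp, Sf3a, Sf3b or U2af, which gave 56 genes of 25410 symbols in the files. Of these, 15 were grouped as SR proteins, 18 as hnRNPs and 23 as snRNP proteins. The last include both subunits of U2AF, the auxiliary factor that brings the U2 particle to the intron's end, and the paralogue U2af1l4. The symbol rule itself uses no measured value, though the genes were chosen with earlier results of these data known. Symbols that begin with Snrnp or Hnrp are not covered by it.

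The samples were 3 RNA-seq libraries of the mouse cell line IDG-SW3, labelled osteocytic, at day 35 of differentiation and after 24 h with 100 nM parathyroid hormone (PTH). All belong to 1 group. IDG-SW3 is 1 immortalised line, grown with interferon-gamma at a lower temperature and then differentiated at body temperature in osteogenic medium that lacked it. The series' design calls the replicates biological, with nothing more on whether cultures were kept apart, so each SD and p-value measures the spread among these libraries. No vehicle-treated library was among the 3 samples, so no effect of PTH was measured, and genes are compared with a fixed level and with each other.

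Splicing is carried out by the spliceosome, which forms anew on each intron from small nuclear RNAs and their proteins. The snRNPs U1, U2, U4, U5 and U6 recognise the intron's ends and branch point, and all but U6 carry a ring of Sm proteins around their RNA. SR proteins bind exons through an RNA recognition motif and draw in the snRNPs through an arginine- and serine-rich domain, whereas hnRNPs coat the nascent transcript and often keep sites from use. The balance of SR proteins and hnRNPs is known to set which exons a cell keeps.

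To show the control regions of the most abundant genes, the 250 bases before the RefSeq transcription start are printed for the gene of each class with the highest level, with median transcript lengths, among those with a single row in the files and a single start (build GRCm38.p6, read in the gene's own direction). They lie at chr2:162931258-162931507 (plus strand) for Srsf6, chr13:58402118-58402367 (minus strand) for Hnrnpk and chr1:133610281-133610530 (minus strand) for Snrpe. Capitals mark a match on either strand: the CCAAT box and GC box, and the core of the cAMP response element, TGACGT.

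Srsf6: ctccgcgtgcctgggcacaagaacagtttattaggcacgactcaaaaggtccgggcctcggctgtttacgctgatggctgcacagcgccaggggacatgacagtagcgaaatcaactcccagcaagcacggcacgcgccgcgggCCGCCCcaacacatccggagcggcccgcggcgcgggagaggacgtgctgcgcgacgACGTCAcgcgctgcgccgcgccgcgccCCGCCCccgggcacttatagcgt

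Hnrnpk: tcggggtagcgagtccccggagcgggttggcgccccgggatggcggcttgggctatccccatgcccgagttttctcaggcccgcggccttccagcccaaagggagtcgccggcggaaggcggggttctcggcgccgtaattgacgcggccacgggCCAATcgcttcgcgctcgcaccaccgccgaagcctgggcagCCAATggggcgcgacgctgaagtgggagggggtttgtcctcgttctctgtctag

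Snrpe: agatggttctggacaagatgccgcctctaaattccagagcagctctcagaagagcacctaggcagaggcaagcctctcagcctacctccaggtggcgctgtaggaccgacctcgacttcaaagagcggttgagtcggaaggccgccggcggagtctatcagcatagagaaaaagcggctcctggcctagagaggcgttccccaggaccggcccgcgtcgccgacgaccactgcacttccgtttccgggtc

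Srsf6 held a GC box at 106 and at 23 bases before its start and the cAMP core between them, at 50 bases. Hnrnpk held CCAAT at 95 and at 54 bases before its start. Snrpe held none of the motifs searched within the 250 bases printed, though its full window, which runs past the start, held the ETS core described next. Across the genes, 49 of 56 had at least 1 RefSeq promoter window of 300 bases, 250 before and 50 after the start. A gene was counted for a motif if any of its windows matched. The 49 genes had 68 windows, against 8339 for 6884 genes called above 1 RPKM and 20556 for all 16912 genes. Splicing genes thus had more windows per gene, and the shares of genes given here and in the next paragraph are not corrected for it. TGACGT, searched on both strands and contained in the full element TGACGTCA, was present in 12 of these 49 genes (24.5%), against 13.8% of 6884 genes called above 1 RPKM and 9.83% of all 16912 genes with a window. The 12 were Srsf3, Srsf6, Srsf11, Hnrnpa2b1, Hnrnpa3, Hnrnph1, Hnrnph2, Hnrnpm, Snrpa, Snrpa1, Snrpg and U2af1, and TGACGTCA itself was in Snrpa and Snrpg (4.08%, against 3.68% of genes called above and 2.67% of all).

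The ETS core CCGGAAG was in 16 of the 49 genes (32.7%), against 21.9% of genes called above and 13.2% of all. GGGCGG was in 35 (71.4%), against 69.4% and 50.8%, and CCAAT in 24 (49.0%), against 42.4% and 42.2%. TATAAA, the core of the TATA box, was in 7 (14.3%), against 8.43% and 14.3%. The windows of splicing genes held a median of 26 CpG dinucleotides, against 21.5 in genes called above and 14 in all genes. These matches describe letters, and no binding was measured.

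Depth was similar across the libraries, with 35195518, 37299517 and 45240005 counts in replicates 1, 2 and 3. Levels are in RPKM, counts per kilobase of transcript and per 1000000 counts, computed here from whole-number values that were read as raw counts, although the files call them RPKM. A gene was called above or below 1 RPKM where edgeR's quasi-likelihood test, with Benjamini-Hochberg adjustment over 21013 symbols, gave an adjusted p under 0.05, and is called unresolved otherwise. Of 13 osteoblast and osteocyte markers, 9 were above 1 RPKM, led by Sparc at 6409 ± 408 RPKM (SD, n = 3). Pdpn and Phex were among those above, at 156 and 9.05 RPKM. Dmp1, Mepe, Fgf23 and Sost averaged 0.652, 0.436, 0.266 and 0.00917 RPKM and were unresolved. Dmp1 had 0.792, 1.12 and 0.0480 RPKM in replicates 1, 2 and 3. Of 32 markers of neurons, epithelium, muscle, blood, endothelium, fat and cartilage, 5 were above, with Lyz2 at 12.9, Fabp4 at 9.72, Tubb3 at 2.84, Kdr at 2.62 and Adipoq at 1.88 RPKM. Pecam1 and Plin1 were at 0, but each had 2 rows, which were summed. Of all symbols with 2 rows and a length, 29.8% were at 0, against 5.04% of those with 1 row. The zeros of Pecam1 and Plin1 are therefore not read as absence of the transcripts.

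Splicing genes were widely expressed. In the fit with edgeR, 46 of 56 were above 1 RPKM (82.1%), against 43.2% of all symbols tested, which leave out those at 0. Only Srsf13b was called below, against 13.4% of all symbols tested, while 5 genes were unresolved and 4 had no count in any library. The median over the 56 genes was 11.9 RPKM, against 0.740 RPKM over all symbols tested and 0.497 RPKM over all symbols with a length, which include those at 0. At 10 RPKM, 29 of the 56 were above, against 20.6% of all symbols tested, and 21 were below, against 73.9%.

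The number of rows per symbol divided the genes. Each of 40 genes had 1 row, and 37 of these were above 1 RPKM, against 45.4% of the tested symbols with 1 row. Their median was 25.4 RPKM, against 0.912 RPKM in all tested symbols with 1 row. The other 16 genes had 2 to 7 rows, which were summed, and 9 of them were above 1 RPKM and 4 at 0. The share above was 25% of the tested symbols with several rows, which leave out those at 0. Of all 3295 symbols with several rows and a length, 564 were above.

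**Figure D1:**
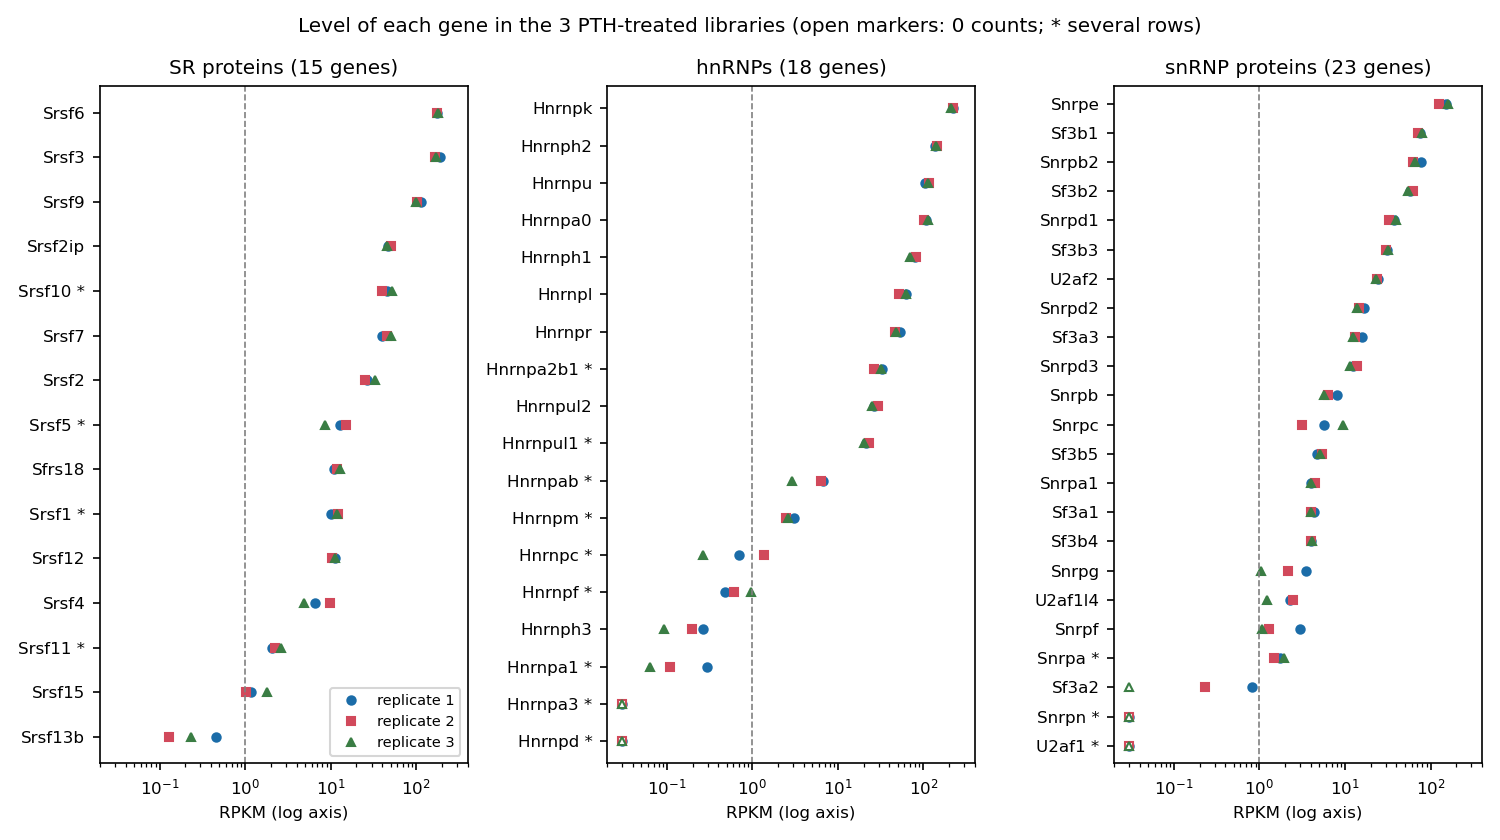
Level of each of the 56 genes in replicates 1, 2 and 3, in RPKM on a log axis, in a panel for each class, with a dashed line at 1 RPKM, open markers for 0 counts and a star for genes with several rows. Most genes lie right of the line with their 3 points close together, from Hnrnpk at 218 RPKM down, and the genes at 0 all carry a star.

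Of 15 genes grouped as SR proteins, 14 were above 1 RPKM, and Srsf6, Srsf3 and Srsf9 had the highest levels with median transcript lengths. The class was set by symbol, so not all of its genes are SR proteins proper. Srsf2ip (today Scaf11), Srsf15 (today Scaf4), Sfrs18 (today Pnisr) and Srsf12 (read here as Srek1) are SR-related proteins under older symbols. They are included in the counts, medians and shares of the class. Srsf6, an SR protein with a pair of RNA recognition motifs, had 12567, 13306 and 16222 counts in replicates 1, 2 and 3, or 177 ± 0.486 RPKM (SD, n = 3). Srsf3, the smallest of the classical SR proteins, had 187, 164 and 169 RPKM. Srsf9 had 113, 103 and 99.1 RPKM. Srsf6 and Srsf3 overlapped in their ranges, and both stood clear of Srsf9. This order depends on the length used for Srsf6, whose level was 694 RPKM with its shortest transcript and 101 RPKM with its longest, below the means of Srsf3 and Srsf9, which have a single length each. The counts of the 3 genes with most counts, Srsf3, Srsf6 and Srsf2ip, made up 65.4% of the class.

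The next SR genes lay between 28 and 48 RPKM. Srsf2ip, listed today as Scaf11, had 46.8, 50.5 and 45.1 RPKM, and Srsf7, a shuttling SR protein with a zinc knuckle, had 39.8, 45.9 and 50.4 RPKM. These overlapped, and both were above Srsf2 (the marker of nuclear speckles known as SC35) in every library, with 26.3, 25.0 and 32.9 RPKM. In Srsf2, 25.3% of exon bases are overlapped by coding genes on the opposite strand, Mettl23 and Mfsd11, and how the counting used strand is not given. Srsf10, which represses splicing when it loses its phosphates, had counts in both of its rows and summed to 45.8 ± 6.49 RPKM (SD, n = 3).

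Srsf1, the founding SR protein, averaged 11.4 ± 1.06 RPKM (SD, n = 3), with 1058, 1333 and 1589 counts in 1 of its 2 rows and none in the other. Srsf5, with counts in 1 of 3 rows, had 12.7, 14.9 and 8.59 RPKM. Srsf4, a close relative of Srsf6 and Srsf5, had 6.61, 9.79 and 4.89 RPKM. All of its values were far below those of Srsf6, which has the same domain layout. Srsf11 averaged 2.30 ± 0.301 RPKM over 3 rows.

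Older symbols account for the rest of the class. Sfrs18, today Pnisr, averaged 11.8 ± 0.994 RPKM (SD, n = 3). Srsf12 was read as the gene now called Srek1, since RefSeq gives Srsf12 as an older name of it, Srek1 has no row of its own and today's Srsf12 is listed as Srsf13b. It averaged 10.9 ± 0.490 RPKM in this reading, and 19.1 ± 0.855 RPKM with the length of the gene named Srsf12 today. Srsf15, today Scaf4, which binds the tail of RNA polymerase II, had 1.17, 1.02 and 1.80 RPKM. Its call above 1 RPKM was close to the threshold (edgeR, adjusted p = 0.047) and was lost without replicate 1 or 3. Srsf13b had 47, 14 and 31 counts, or 0.272 ± 0.167 RPKM (SD, n = 3). It was below 1 RPKM in all 3 libraries (edgeR, adjusted p = 0.019), but the call was lost without replicate 1 or 2.

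Among the 18 hnRNPs, 12 were above 1 RPKM, 4 were unresolved and 2 were at 0, and Hnrnpk, Hnrnph2, Hnrnpu and Hnrnpa0 exceeded 100 RPKM on average. Hnrnpk, which binds C-rich RNA through KH domains, had 220, 223 and 211 RPKM, the highest level of the 56 genes with the median or longest transcripts. With the shortest transcripts it had 551 RPKM, below Srsf6. Hnrnph2, a binder of G-runs, had 136, 144 and 140 RPKM. Hnrnpu, a large protein that also ties RNA to chromatin, had 103, 115 and 113 RPKM. Hnrnpk, Hnrnph2 and Hnrnpu did not overlap in their ranges (Hnrnph2 had 82.8 RPKM, below Hnrnpu, with its longest transcript), while Hnrnpu overlapped with Hnrnpa0, a relative of the A and B proteins at 108 ± 5.30 RPKM (SD, n = 3). Processed pseudogenes share part of the sequence: 14.5% of the 50-base stretches of Hnrnpk transcripts and 15.9% of those of Hnrnph2 occur in another gene, against 0% for Hnrnpu and Hnrnpa0.

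The middle of the class ran from Hnrnph1 to Hnrnpul1. Hnrnph1, nearly identical in protein to Hnrnph2, had 80.1, 81.7 and 70.0 RPKM. Hnrnpl, which binds CA repeats, averaged 59.3 ± 5.96 RPKM and Hnrnpr 49.3 ± 2.94 RPKM (SD, n = 3), with overlapping ranges. With its longest transcript, of 21452 bases, Hnrnpr had 6.12 RPKM. Hnrnpul2 averaged 27.0 ± 2.52 RPKM and its relative Hnrnpul1, with nearly all counts in 1 of 2 rows, 21.6 ± 1.35 RPKM. Hnrnpa2b1, a core A and B protein, averaged 30.6 ± 3.58 RPKM, from 1 row of 2. Hnrnpab had 6.78, 6.41 and 2.93 RPKM and Hnrnpm averaged 2.73 ± 0.323 RPKM, each with 1 of 2 rows at 0. In Hnrnpab, 29.1% of exon bases are overlapped by Phykpl on the opposite strand. In Hnrnpm, 14.7% are overlapped by March2 on the same strand, and 13.5% of its 50-base stretches occur in March2.

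The other 6 hnRNPs were at or near 0, and 5 of them had several rows. Hnrnpa3 and Hnrnpd, whose product also regulates mRNA decay, had 0 counts in all 3 libraries across 3 and 4 rows, where 0 allows up to 3 counts a library. Hnrnpc, a core hnRNP that binds U tracts, had 62, 128 and 30 counts, all in 1 of 5 rows (0.776 ± 0.554 RPKM; edgeR, adjusted p = 0.341). Hnrnpf had 38, 52 and 98 counts over 7 rows, 5 of them at 0 (0.681 ± 0.246 RPKM; edgeR, adjusted p = 0.218). Hnrnpa1, the best known A and B protein, had 18, 7 and 5 counts, all in 1 of 2 rows (0.155 ± 0.122 RPKM; edgeR, adjusted p = 0.146). Hnrnph3 was the exception with 1 row, at 20, 16 and 9 counts (0.184 ± 0.0860 RPKM; edgeR, adjusted p = 0.081), and none of its 50-base stretches occurs in another gene. It was called below 1 RPKM with limma and with a count filter. Of the 50-base stretches of Hnrnpf, Hnrnpa1, Hnrnpa3 and Hnrnpc, 36.8%, 28.2%, 27.1% and 8.28% occur in other genes, against 0.617% for Hnrnpd. The part of shared sequence in these low levels was not tested.

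**Figure D2:**
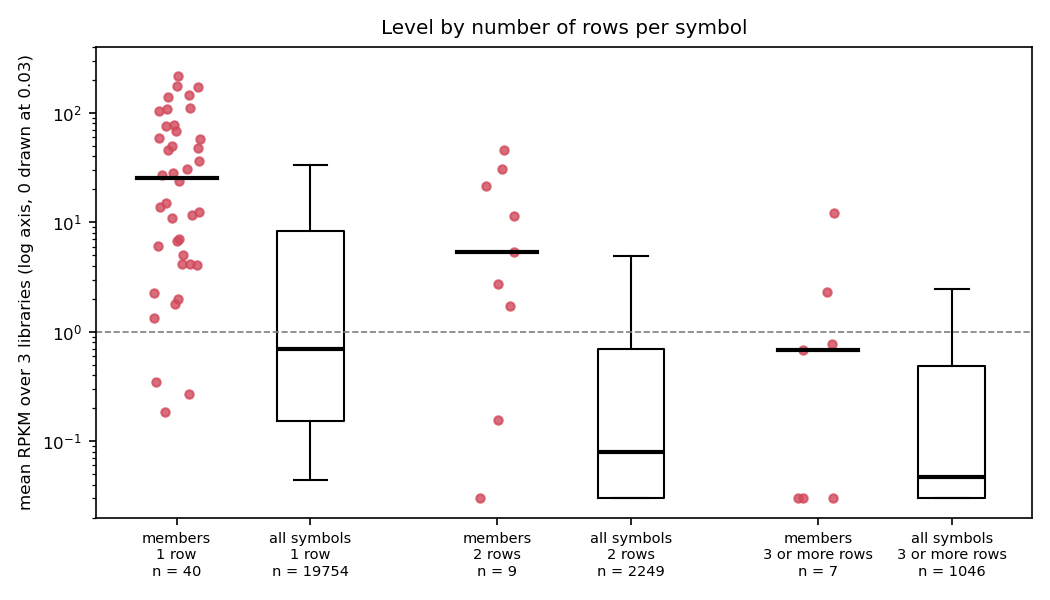
Mean RPKM over the 3 libraries (log axis) by number of rows per symbol, for the splicing genes as points and all symbols beside them, with a dashed line at 1 RPKM. The medians of the splicing genes fall at 25.4, 5.37 and 0.681 RPKM for 1, 2 and 3 or more rows, and those of all symbols at 0.694, 0.0800 and 0.0466 RPKM.

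The same drop with rows was present in all symbols. No splicing gene with 1 row was at 0, while 1 of 9 with 2 rows and 3 of 7 with 3 or more rows were. Among all symbols with a length, 5.04%, 29.8% and 35.4% were at 0 for 1, 2 and 3 or more rows. Of the 46 rows of splicing genes with several rows, 28 (60.9%) held no count in any library, against 62.4% of 8855 such rows in the files. A low sum for Hnrnpa1, Hnrnpa3, Hnrnpc, Hnrnpd, Hnrnpf, Snrpn or U2af1 is therefore not read as absence of the transcript, and the part that counting played was not tested.

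The snRNP proteins had lower levels, with a median of 6.08 RPKM over 23 genes, against 24.3 RPKM for hnRNPs and 12.1 RPKM for SR proteins. Of the 23, 20 were above 1 RPKM. Among genes with 1 row the medians were 9.64 RPKM for 20 snRNP genes, 77.3 RPKM for 9 hnRNPs and 28.0 RPKM for 11 SR genes. No test was made between the classes.

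The Sm ring holds 7 proteins in equal number in each particle, yet its transcripts were spread over a wide range. Snrpe had 152, 126 and 158 RPKM and was highest in every library. Snrpd1 had 37.3, 32.5 and 39.8 RPKM, Snrpd2 16.7, 14.7 and 13.9 RPKM, and Snrpd3 12.5, 13.7 and 11.4 RPKM. Snrpb, whose transcript makes the B and B′ proteins, had 8.12, 6.37 and 5.73 RPKM. Snrpg had 3.53, 2.19 and 1.05 RPKM (edgeR, adjusted p = 9.04e-05) and Snrpf 2.97, 1.28 and 1.08 RPKM (edgeR, adjusted p = 0.047). All 7 were above 1 RPKM, with Snrpe at 81.9 times the mean level of Snrpf (125 times with the shortest transcripts and 67.3 with the longest). Snrpd3 ranged from 49.3 RPKM with its shortest transcript to 7.18 RPKM with its longest, so the order of the middle genes is not fixed. The calls of Snrpg and Snrpf were lost without replicate 1 and with DESeq2, and that of Snrpf also with limma (adjusted p = 0.072) and with a filter of 10 counts in 2 libraries (edgeR, adjusted p = 0.055). Of the 50-base stretches of Snrpf, 21.3% occur in another gene, and 65.9% of its exon bases are overlapped by Ccdc38 on the opposite strand, against 9.0% and no such overlap for Snrpe.

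The SF3b complex holds the branch point within U2, and the 5 of its genes that carry an Sf3b symbol here were all above 1 RPKM. Phf5a, a further subunit under another name, averaged 12.9 ± 0.729 RPKM (SD, n = 3). Sf3b1, its scaffold, had 74.4, 71.9 and 80.5 RPKM and 38.2% of the counts of the snRNP class. Sf3b2 averaged 57.8 ± 4.09 RPKM and Sf3b3 30.9 ± 1.08 RPKM (SD, n = 3). Sf3b5 averaged 5.04 ± 0.344 RPKM and Sf3b4 4.04 ± 0.0818 RPKM. The range over the 5 genes was 18.7-fold, and 43.6% of the 50-base stretches of Sf3b4 occur in the processed pseudogene Gm7935.

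SF3a, which joins SF3b in the mature U2 particle, had 2 of 3 genes above. Sf3a3 had 15.7, 13.1 and 12.6 RPKM and Sf3a1 4.37, 3.98 and 4.04 RPKM, so every library had Sf3a3 higher. Sf3a2, with 1 row, had 43, 13 and 0 counts, or 0.816, 0.233 and 0 RPKM, and was unresolved (edgeR, adjusted p = 0.155). Replicate 3 alone had no count, and 16.1% of its exon bases are overlapped by Plekhj1 on the opposite strand.

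**Figure D3:**
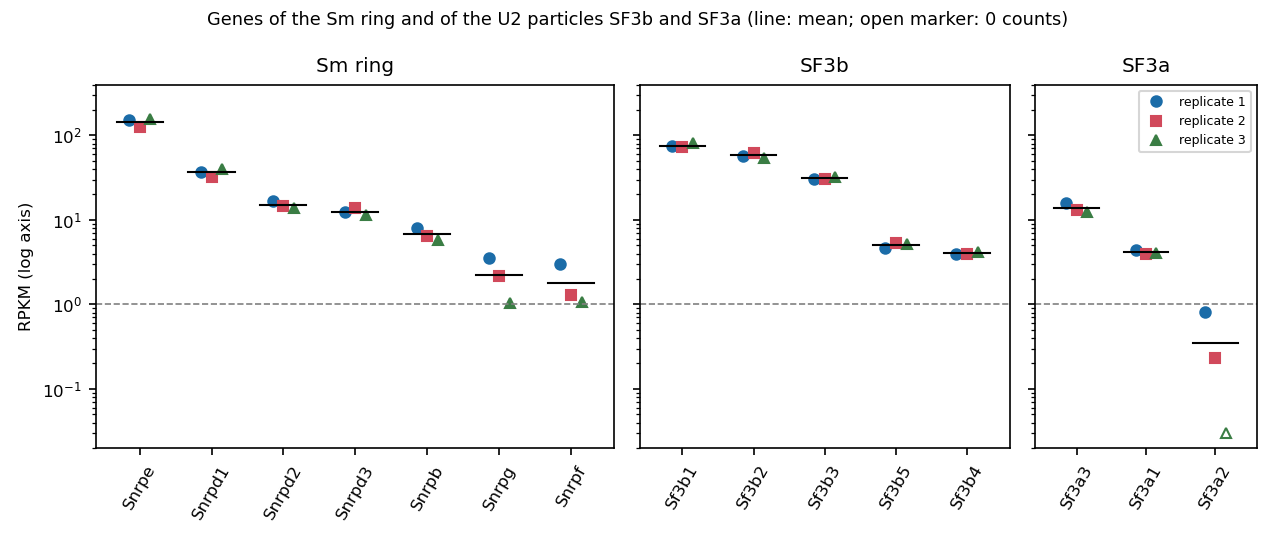
RPKM (log axis) in each library for genes of the Sm ring, SF3b and SF3a, with a bar at the mean, a dashed line at 1 RPKM and an open marker for 0 counts. Snrpe stands at 145 RPKM and Snrpf at 1.77 RPKM within the ring, and Sf3a2 is the only gene of the 3 assemblies with a library at 0.

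The particle-specific proteins and U2AF also differed. Snrpb2 and Snrpa1, partners in the U2 particle, averaged 68.4 ± 7.95 and 4.18 ± 0.268 RPKM (SD, n = 3). Snrpc, which helps U1 hold the start of the intron, had 5.73, 3.10 and 9.41 RPKM. Snrpa, the U1 relative of Snrpb2, had 82, 74 and 116 counts over 2 rows, or 1.72 ± 0.218 RPKM (edgeR, adjusted p = 0.015), and lost its call without replicate 1 or 3.

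U2af2, the large subunit of U2AF that binds the polypyrimidine tract, had 24.4, 23.8 and 23.0 RPKM, while U2af1, the small subunit, had 0 counts in both of its rows. U2af1l4, a paralogue of U2af1, had 60, 68 and 41 counts, or 1.98 ± 0.668 RPKM (edgeR, adjusted p = 0.016), and lost the call without replicate 1 or 2. Of its 50-base stretches 42.1% occur in another gene, and 65.6% of its exon bases are overlapped by the gene Gm49396 on the same strand. Snrpn, an imprinted relative of Snrpb known from brain, had 0 counts in all 3 rows. Of the 50-base stretches of U2af1 and of Snrpn, 21.7% each occur in other genes.

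Pairs of related genes were compared within each library as differences of log2(RPKM + 0.1). Srsf3 exceeded Srsf7 by 2.23, 1.83 and 1.74 in replicates 1, 2 and 3, a mean of 1.94 ± 0.26 (SD, n = 3) or 3.83-fold. The difference was 1.18 with the shortest transcripts and 2.95 after a correction for GC content. Hnrnph1 minus Hnrnph2 was -0.76, -0.81 and -1.0, a mean of -0.86 ± 0.12 or 1.81-fold lower, and -0.23 with the longest transcripts. Sf3b1 exceeded Sf3a1, the largest subunit of SF3a, by 4.06, 4.14 and 4.28, a mean of 4.16 ± 0.11 or 17.9-fold. The direction was the same in all 3 libraries for each pair, and the exact sign-flip permutation test with 3 libraries cannot give a p below 0.25. In the pairs Snrpn and Snrpb, U2af1 and U2af2, Hnrnpa1 and Hnrnpa2b1, and Snrpa and Snrpb2, 1 gene had several rows, so no fold is given.

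Together the 56 genes held 5662, 5622 and 5648 counts per 1000000 in replicates 1, 2 and 3, or 0.564% ± 0.00205 of all counts (SD, n = 3). The hnRNPs held 2727, 2802 and 2736 counts per 1000000, the SR proteins 1679, 1628 and 1661, and the snRNP proteins 1256, 1191 and 1251. The exact binomial 95% interval of the hnRNP share in replicate 2, 2785 to 2819 counts per 1000000, did not overlap with that in replicate 1, 2710 to 2744, so the libraries differed by more than counting error, which is all that the interval covers. Hnrnpu alone gave 14.97% of the counts of the 56 genes. In RNA from whole cultures, fewer cells of a type and less RNA per cell cannot be told apart.

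The spread between libraries was described beside that of other genes. Among the 36 with a mean of 5 RPKM or more, the median SD of log2(RPKM + 0.1) over the libraries was 0.13, against 0.14 for all 6423 symbols at that level, and 14 of the 36 (38.9%) were under 0.1, against 33.3% of all symbols. The 5 with the widest spread were Snrpc (SD 0.79), Hnrnpab (0.66), Srsf4 (0.50), Srsf5 (0.41) and Snrpb (0.25). Hnrnpab, Srsf4, Srsf5 and Snrpb were lowest in replicate 3, and Snrpc was highest there. Srsf6 had the smallest SD of the 36, at 0.0040.

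GC content moved with level among the splicing genes. Among the 40 genes with 1 row, 23 with GC under 50% had a median of 36.5 RPKM and 17 with 50% or more a median of 7.09 RPKM. Spearman's rho between GC and level was -0.34 across these 40 genes, against -0.15 across 9215 symbols with 1 row and at least 1 RPKM. Between transcript length and level it was 0.18, against -0.13. The 40 genes were not filtered by level and include Sf3a2, Srsf13b and Hnrnph3 at 0.350, 0.272 and 0.184 RPKM, so the 40 and the 9215 are unlike sets. The 9215 leave out symbols under 1 RPKM, so -0.15 does not give the sign over all symbols with 1 row. The GC correction of the pairs raised the gene of lower GC against its partner, as it would where level rises with GC. The log2 ratio went from 1.94 to 2.95 for Srsf3 over Srsf7 and from 4.16 to 4.62 for Sf3b1 over Sf3a1. For Hnrnph1 over Hnrnph2 it went from -0.86 to -1.15. The split at 50% GC was not made for other genes. These are descriptions across genes of the same libraries, and the part of GC content in the levels was not tested.

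Other genes of the splicing pathway were described from lists by function, counted in the same edgeR fit, in which 43.2% of all symbols tested were above 1 RPKM and 13.4% below (45.4% above among symbols with 1 row and 25% among those with several). Of 9 kinases of SR proteins, 6 were above 1 RPKM, led by Clk1 at 49.4 ± 2.70, Srpk1 at 43.7 ± 4.69 and Clk4 at 22.4 ± 2.70 RPKM (SD, n = 3). Dyrk1a, with 2 rows, was below at 0.0686 ± 0.0395 RPKM. Of 21 SR-related proteins not already among the 56, 18 were above, led by Rbm39 at 205 ± 11.7, Thrap3 at 97.7 ± 8.88 and Tra2a at 89.8 ± 10.7 RPKM. Of 24 RNA-binding proteins akin to hnRNPs, 18 were above, led by Ybx1 at 419 ± 34.1, Matr3 at 188 ± 11.9 and Syncrip at 76.3 ± 8.87 RPKM.

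Lists for the core of the spliceosome and its partners were counted against the same 43.2% of all symbols tested that were above 1 RPKM. Among 32 proteins of U5, the tri-snRNP and the Prp19 complex, 29 were above, led by Bud31 at 130 ± 23.5, Snw1 at 70.7 ± 3.80 and Cwc15 at 54.5 ± 3.62 RPKM (SD, n = 3). Of 12 LSm genes, whose products include the ring on U6, 10 were above, led by Lsm3 at 33.2 ± 3.35 RPKM. Of 18 genes in a list of helicases, branch site factors and some other splicing factors, 15 were above. They were led by Prpf18, which is of the last kind, at 61.8 ± 4.14 RPKM. Sf1, the branch point binder, with 2 rows, was below at 0.320 ± 0.0676 RPKM. Of 16 genes that assemble snRNPs, 13 were above, led by Strap at 74.6 ± 5.62 RPKM. Of 13 genes of the exon junction complex and the decay pathway that reads it, 10 were above, led by Magoh at 154 ± 12.9 RPKM.

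Regulators of alternative splicing, many of them restricted to certain tissues, had a median of 0.121 RPKM over 35 genes. The median was 0.740 RPKM over all symbols tested and 0.497 RPKM over all symbols with a length, which include those at 0. Of the 35, 10 were above 1 RPKM, against 43.2% of all symbols tested, and 11 below, against 13.4%, while 12 were unresolved and 2 at 0. Among the 21 with 1 row, 7 were above, against 45.4% of such symbols tested, and the median was 0.152 RPKM, against 0.912 RPKM. Those above were led by Rbm4 at 107 ± 12.7, Mbnl1 at 101 ± 8.61 and Mbnl3 at 47.3 ± 3.58 RPKM (SD, n = 3). The neuronal regulators Nova1, Nova2, Srrm4 and Elavl3 were below at 0.323, 0.0755, 0.335 and 0.0755 RPKM, and the epithelial regulators Esrp1 and Esrp2 at 0.0864 and 0.119 RPKM. Celf5, with 1 row, was below at 0.152 RPKM, and Celf1, Celf2, Rbm10 and Rbm47, with several rows each, at 0.136, 0.0031, 0.224 and 0.121 RPKM.

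**Figure D4:**
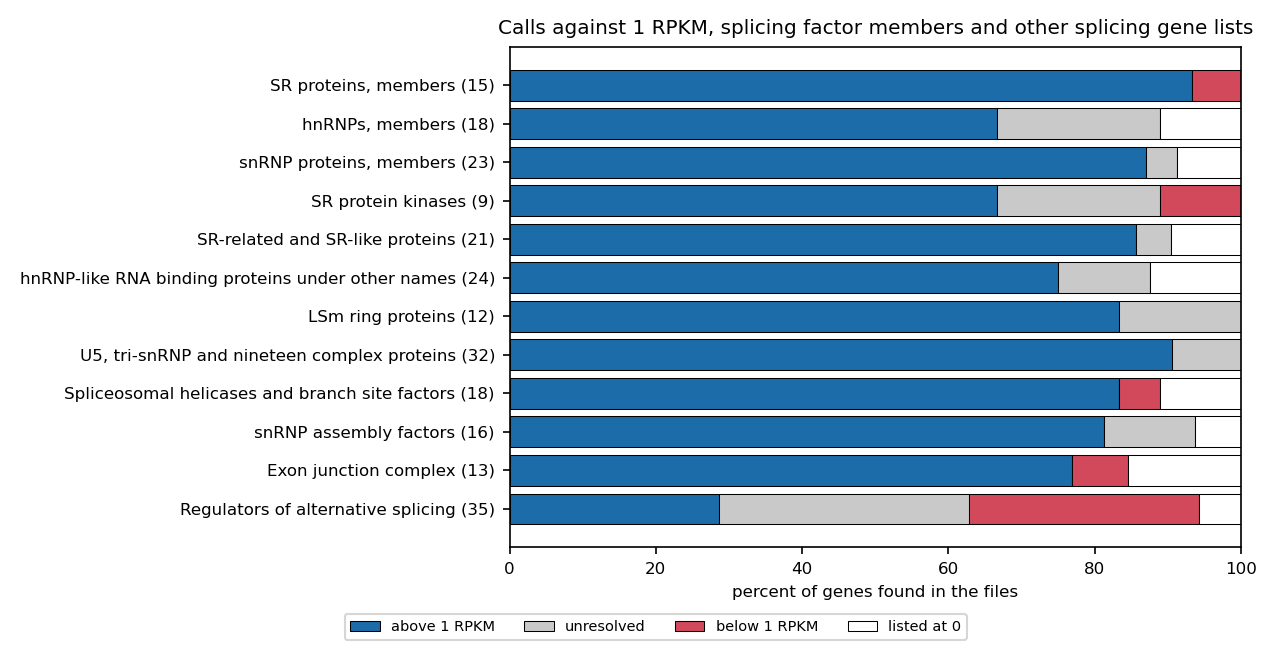
Percent of genes called above 1 RPKM, below it, unresolved or at 0 in the 3 classes of splicing genes and in 9 lists of other splicing genes, with the number of genes in brackets. The bars of the SR proteins (14 of 15 above) and snRNP proteins (20 of 23) are mostly above, and the regulators of alternative splicing have 10 of 35 above.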

How the data were processed

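RNA-seq was done on total RNA cleared of ribosomal RNA, with a kit that preserves strand per the labels' protocols, in 3 PTH-treated libraries of IDG-SW3 cells. The authors deposited a value for each of 30795 rows, named by gene symbol. The deposited values were whole numbers and were used as raw counts: weighted by kilobases of transcript, their sums were 111226727, 118322983 and 144763712, whereas RPKM values could sum to no more than about 1000000. TopHat and mm9 were used per the submitters' processing notes, while the sources used here do not give versions, the counter, the annotation, or how strand, duplicate reads and multiply mapped reads were handled.

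Rows were summed per symbol. Lengths were medians over GENCODE M21 basic transcripts, found for 23049 of 25410 symbols (20839 directly, 2209 by a RefSeq synonym and 1 set by hand, Srsf12), including all 56 splicing genes. RPKM was computed over the total counts. Levels were tested two-sided against 1 RPKM with edgeR 4.0.16 (R 4.3.3) by the quasi-likelihood test of the intercept, with the expected count as offset, over the 21013 symbols above 0 in at least 1 library, adjusted by Benjamini and Hochberg's method with 0.05 as threshold. The fit was tested on simulated data. Alternatives used DESeq2 1.42.0, limma 3.58.1, other lengths, row means, filters and libraries left out in turn. Shared sequence and exon overlap came from the same GENCODE release and promoters from RefSeq (GRCm38.p6), with no coordinate carried between builds.

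Every splicing gene may be named. From each list the 3 highest and those called below are candidates for naming, along with every marker and the 5 widest in spread. The result for 1 gene of a list is not reported here. The genes and lists were chosen with earlier results of these data known. Protein features, also planned, were not computed.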

Additional observations from a re-analysis of the deposited data

How the results depend on the processing

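The calls rest on reading the files as counts, on lengths from another annotation than the authors', and on 3 libraries. Of the 46 genes above 1 RPKM, 39 kept the call in every setting tried at that level. The number above was between 39 (DESeq2) and 46 under the other settings at 1 RPKM (41 to 45 with a library left out), and 29 against a level of 10 RPKM, with 9 of the SR and 10 of the snRNP genes. With a library left out, 13 to 14 SR, 12 hnRNP and 16 to 19 snRNP genes were above. The number below, 1, became 2 with a filter of 10 counts in 2 libraries, 3 with the mean over rows, 4 with limma (Srsf13b, Hnrnpa1, Hnrnph3 and Sf3a2), 0 with DESeq2 (0 at an unadjusted p under 0.05), 21 against 10 RPKM, and 0 to 1 with a library left out. DESeq2 lost 8 calls, those of Hnrnpm, Snrpa, Snrpf, Snrpg, Srsf11, Srsf13b, Srsf15 and U2af1l4.

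Of the 52 genes above 0, 15 moved by over 1.5 times with the shortest or longest transcript, and 21 have a single length. The filter lost the calls of Snrpf and Srsf15, limma the same, and the longest transcripts those of Srsf15 and U2af1l4.

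The SR median was 27.8 RPKM with the shortest transcripts, 28.0 in genes with 1 row and 11.8 to 13.8 with a library left out. The hnRNP median was 12.6 with the longest transcripts, 30.1 with the shortest, 13.1 with the mean over rows, 77.3 in genes with 1 row and 23.2 to 25.1 with a library left out. The snRNP median was 5.6, 6.74 and 9.64 RPKM with the longest transcripts, the shortest and 1 row, and 5.0 to 6.93 with a library left out. With the mean over rows the SR share was 1553 and the hnRNP share 2682 counts per 1000000. With a library left out, the shares were 1645 to 1670 for SR, 2732 to 2769 for hnRNP and 1221 to 1253 for snRNP genes.

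For Srsf3 over Srsf7 the log2 ratio was 2.46 (longest), 1.18 (shortest), 2.95 (GC correction) and 1.79 to 2.03 with a library left out. For Hnrnph1 over Hnrnph2 it was -0.23, -1.27, -1.15 and -0.90 to -0.79. For Sf3b1 over Sf3a1 it was 3.90 with a pseudocount of 1, 4.62 with GC correction and 4.10 to 4.21. Against 1 RPKM, Hnrnpc turned to log2 0.58 with the shortest transcript and ran from -1.06 to 0.044 with a library left out (0.044 without replicate 3), and with the mean over rows Snrpa turned to -0.22 and Srsf11 to -0.38. The cause of these shifts was not tested beyond the construction of each setting. Reading Srsf12 as today's gene, chosen after seeing the data, left 46 above. No paired analysis was possible because all libraries belong to 1 group.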
